A study of Mus musculus with 4 samples.

Results

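Described here, across epididymal fat of mice with and without CD1d, are 7 genes: Akp3, Reg1, Guca2b, Smim24, Ly6f, Ada and Slc38a3. They are 7 of 18820 genes read by a probe set with a single gene symbol. They were chosen by their log2 intensity being higher on both CD1d-null arrays than on the array of wild type mice given low-fat food, so that difference is given as a description without a test. The study profiled 4 arrays of epididymal adipose tissue, a depot of visceral fat in male mice that is attached to the epididymis. CD1d presents lipid antigens to natural killer T cells, and mice without it lack the CD1d-restricted cells of that kind. The groups were CD1d-/- mice given low-fat food of 10 kcal% fat (2 arrays, KO1 and KO2), wild type mice given high-fat food of 45 kcal% fat (1 array, WT-HF) and wild type mice given the low-fat food (1 array, WT-LF). All were labelled C57BL/6, and the CD1d-null line came from 10 to 12 generations of backcrossing to C57BL/6J. Diets started at an age of 10 to 11 weeks, after standard chow, and ran for 18 to 19 weeks. Each array held RNA pooled from 4 to 6 mice of a group, and whether KO1 and KO2 came from separate pools is not stated, so the p-values rest on the gap between KO1 and KO2, whatever its source. No CD1d-null array on the high-fat diet was analysed here.

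Several of these genes are known from the epithelium of the gut. Absorptive cells of the small intestine carry a brush border, a dense layer of microvilli studded with enzymes such as alkaline phosphatase, and secretory cells release peptides and lectins into the lumen. Uroguanylin, the product of Guca2b, acts on guanylate cyclase C of these cells to drive salt and water secretion, and Reg proteins are secreted lectin-like proteins of pancreas and gut. Of the 7 products, those of Reg1 and Guca2b are secreted; Akp3 and Ly6 proteins are held in the membrane by a lipid anchor, Smim24 and Slc38a3 span the membrane, and adenosine deaminase is mainly an enzyme of the cytosol. Slc38a3 is best known from liver, kidney and brain. The working description of the 7 as gut secretory genes therefore covers only some of them, and they are called by their names below.

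The stretches before the start of 4 of these genes are shown because the genes were high together on the KO arrays and carry letters known as sites of gut and liver factors or of the basal machinery. The letters GTTAAT, a half-site of the HNF1 factors of gut, liver and kidney epithelium, occurred in the windows of Guca2b and Smim24. The letters CAAAGT, from the core recognized by HNF4, occurred in those of Akp3 and Ada, and TATAAA, the letters of the TATA box, in those of Reg1 and Ly6f. Windows of 250 bases before to 50 bases after the start were available for 6 of the 7 genes, without Slc38a3, and came from RefSeq on build GRCm38.p6. The last 200 bases before the start are printed 5′ to 3′ on the strand of the gene, with matches on either strand in capitals. They lie at chr1:87124754-87124953 on the plus strand for Akp3, chr4:119658946-119659145 on the minus strand for Guca2b, chr10:81392864-81393063 on the plus strand for Smim24 and chr6:78425783-78425982 on the plus strand for Reg1.
Akp3: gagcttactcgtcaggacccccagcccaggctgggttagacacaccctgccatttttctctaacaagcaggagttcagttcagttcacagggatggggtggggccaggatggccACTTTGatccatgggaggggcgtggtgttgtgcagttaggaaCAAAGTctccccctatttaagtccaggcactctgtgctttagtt
Guca2b: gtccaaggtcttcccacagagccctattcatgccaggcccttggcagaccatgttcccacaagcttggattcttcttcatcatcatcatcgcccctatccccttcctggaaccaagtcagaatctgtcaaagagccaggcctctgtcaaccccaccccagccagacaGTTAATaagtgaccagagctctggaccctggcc
Smim24: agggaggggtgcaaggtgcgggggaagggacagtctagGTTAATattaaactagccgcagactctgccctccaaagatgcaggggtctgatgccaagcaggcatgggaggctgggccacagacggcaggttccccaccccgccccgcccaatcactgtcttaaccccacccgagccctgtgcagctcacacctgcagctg
Reg1: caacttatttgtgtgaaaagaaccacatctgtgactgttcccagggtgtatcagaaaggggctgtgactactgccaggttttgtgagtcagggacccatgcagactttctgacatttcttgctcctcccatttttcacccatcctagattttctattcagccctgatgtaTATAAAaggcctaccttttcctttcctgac

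Counted from the start, with −1 the base before it, the half-site lay at −33 to −28 in Guca2b and at −162 to −157 in Smim24. The HNF4 core letters lay at −86 to −81 and −44 to −39 in Akp3 and at −235 to −230 in Ada. TATAAA lay at −30 to −25 in Reg1, where a TATA box usually lies, and at −169 to −164 in Ly6f, farther from the start. Reg1 held another match on the opposite strand, past the start, at 35 to 40. Over all 32851 windows of the same length, searched on both strands, 7.1% held GTTAAT, 14.4% held CAAAGT and 13.6% held TATAAA. Each was present in 2 of the 6 windows of these genes. The core TTTAT of the intestinal CDX factors, held by 40% of all windows, was in 2 of the 6, Ly6f and Reg1, in part overlapping their TATAAA letters. No motif was shared by more than 2 of the 6 windows, and a match is a description of letters, not of binding.

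Cd1d1 followed the labels, but over all tested genes KO2 lay nearer to WT-HF than to KO1. At 1.5-fold, 1674 tested genes were higher and 503 lower on KO2 than on KO1, while 177 were higher and 148 lower on KO2 than on WT-HF. Macrophage genes were among those that differed, such as Gpnmb, at 7.44 on KO1 and 11.21 on KO2, against 11.59 on WT-HF and 8.12 on WT-LF. The values of the 7 genes are therefore given for KO1 and KO2 apart, and the part of this gap in them was not tested. Cd1d1, the disrupted gene (probe set 10499160), had log2 intensities of 3.74 and 3.98 on KO1 and KO2, against 11.80 on WT-HF and 11.80 on WT-LF. Adipocyte identity genes were high on all 4 arrays, with list medians of 12.74, 12.88, 12.85 and 12.73 on KO1 and KO2, WT-HF and WT-LF. Epididymal genes, of the duct to which the pad is attached, stood apart on WT-LF. Their summed intensity over 22 genes was 1310 and 3025 on the KO arrays and 432 on WT-HF, against 18903 on WT-LF. The limma fit over 11292 genes that passed a low-level filter called 0 genes higher and 5 lower for KO against WT-LF, which are 0% and 0.0443% of those tested. The 5 were Cd1d1 and the epididymal genes Spint4, Spint5, Epp13 and Lcn5. Without adjustment, p was under 0.05 for 41 genes in the higher direction and 51 in the lower. For KO against WT-HF, limma called 0 genes higher (0%) and 1 lower (0.00886%), Cd1d1; unadjusted p-values under 0.05 were found for 86 genes in the higher direction and 41 in the lower.

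**Figure D1:**
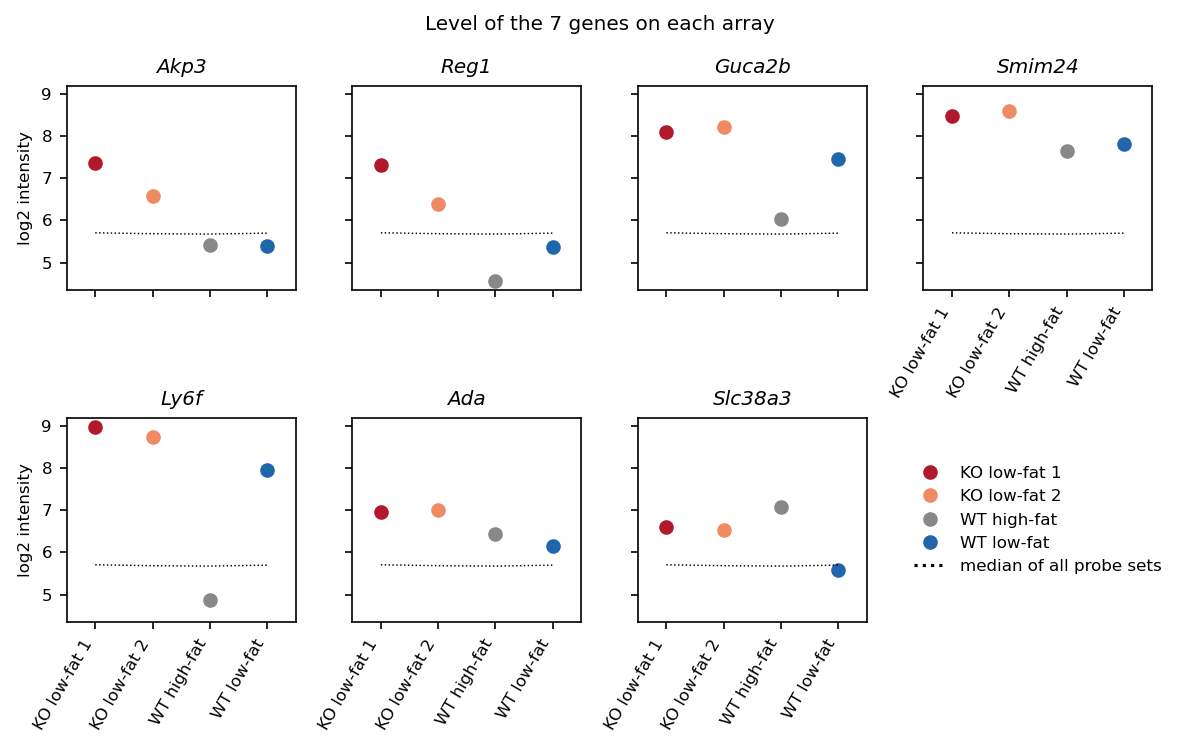
Level of each of the 7 genes on the 4 arrays, as log2 intensity, 1 point per array; the dotted line is the median of all probe sets on each array. Both KO points lie above both wild type points for every gene but Slc38a3, whose WT-HF point is the highest.

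Akp3 encodes the alkaline phosphatase of the duodenum, a brush border enzyme. Its log2 intensity was 7.35 on KO1 and 6.59 on KO2, against 5.43 on WT-HF and 5.39 on WT-LF. Both KO arrays were above both wild type arrays, which lay within 0.04 of each other and under their array medians of 5.68 and 5.70. The KO arrays lay 0.77 apart. The KO mean was 6.97 ± 0.54 (SD, n = 2), a 2.99-fold intensity relative to WT-LF. This fold is approximate because the WT-LF level was under the median, where other dim genes also differed between arrays. The 990 olfactory receptors had median differences from WT-LF of 0.35 on KO1 and 0.21 on KO2.

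Reg1, the secreted pancreatic stone protein in mouse, had the other large difference. Its level was 7.31 and 6.39 on KO1 and KO2, against 4.57 on WT-HF and 5.37 on WT-LF. The groups did not overlap, and again KO1 was the highest of the 4. The KO mean of 6.85 ± 0.65 (SD, n = 2) was 2.77-fold the WT-LF level and 4.86-fold the WT-HF level. Both folds are approximate, because both wild type levels were under their array medians. Akp3 and Reg1 were the 2 genes past 2-fold on both KO arrays, and also the 2 with the widest KO spread.

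Guca2b, which encodes uroguanylin, was at 8.11 and 8.21 on KO1 and KO2, against 6.03 on WT-HF and 7.45 on WT-LF. The KO arrays agreed within 0.11 and lay above both wild type arrays, which differed from each other by more than either KO array differed from WT-LF. The KO mean of 8.16 ± 0.077 (SD, n = 2) was 1.63-fold the WT-LF level and 4.37-fold the WT-HF level.

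Ly6f, a member of the Ly6 family of lipid-anchored surface proteins, had the largest gap between the wild type arrays among the 7. Its level was 8.97 and 8.73 on KO1 and KO2, against 4.87 on WT-HF and 7.94 on WT-LF. The WT-HF level was under the array median of 5.68 and the other 3 arrays were well above theirs. The KO mean of 8.85 ± 0.17 (SD, n = 2) was 1.88-fold the WT-LF level and, as an approximate value, 15.8-fold the WT-HF level.

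Smim24, a small membrane protein gene, was at 8.47 and 8.58 on KO1 and KO2, against 7.64 on WT-HF and 7.81 on WT-LF. Here the wild type arrays lay close together, and both KO arrays stood above them. The KO mean of 8.53 ± 0.081 (SD, n = 2) was 1.64-fold the WT-LF level.

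Ada encodes adenosine deaminase, which turns adenosine into inosine and is abundant in the upper digestive tract of mice. Its level was 6.96 and 7.01 on KO1 and KO2, against 6.43 on WT-HF and 6.16 on WT-LF. The groups did not overlap, and the KO arrays lay only 0.05 apart, the closest pair of the 7. The KO mean of 6.98 ± 0.032 (SD, n = 2) was 1.77-fold the WT-LF level and 1.46-fold the WT-HF level, the smallest excess over WT-HF among the 6 genes above it.

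Slc38a3 encodes a glutamine transporter that works with sodium and proton exchange. Its level was 6.60 and 6.53 on KO1 and KO2, against 7.07 on WT-HF and 5.58 on WT-LF. It was the exception: the KO arrays lay between the wild type arrays. The KO mean of 6.56 ± 0.044 (SD, n = 2) was 1.98-fold the WT-LF level, while the WT-HF level was 2.81-fold the WT-LF level. Both folds are approximate, because the WT-LF level was under the array median of 5.70.

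Each gene was read by 1 probe set, which was 10348131 for Akp3, 10539200 for Reg1, 10515935 for Guca2b, 10365127 for Smim24, 10424691 for Ly6f, 10489391 for Ada and 10596718 for Slc38a3. They lie on chromosomes 1, 6, 4, 10, 15, 2 and 9 in that order, so no pair shares a chromosome. All 7 passed the filter, a mean level of at least 5.45. Akp3 and Reg1 had wild type levels under it and passed through the KO arrays.

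**Figure D2:**
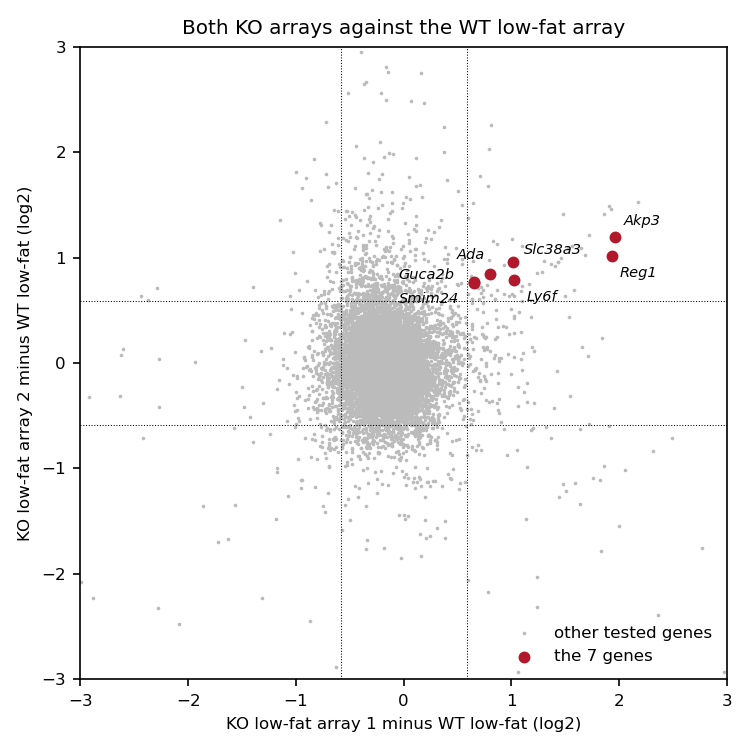
Difference from WT-LF on KO1 (horizontal) and KO2 (vertical), in log2 units, for the tested genes; red points are the 7 genes and dotted lines mark 1.5-fold, and 35 tested genes fall outside the axes. The 7 lie in the upper right corner, where the rule placed them, with Akp3 and Reg1 farthest to the right.

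On KO1 the 7 differences from WT-LF ran between 0.65 and 1.96 with a median of 1.02, and on KO2 between 0.76 and 1.20 with a median of 0.85. Over the 11292 tested genes the medians were −0.17 and −0.02. At 1.5-fold on both KO arrays, 66 tested genes were higher, or 0.584%; all 7 were among them, as the choice of members fixed. The rule set no numeric limit, and the smallest lower difference was that of Guca2b, 0.65. At least that much on both KO arrays was met by 48 tested genes, the 7 and 41 others. Just inside was Fkbp5, a steroid receptor co-chaperone, with differences of 0.93 and 0.66, and just outside were Igfbp3, with 0.65 and 1.52, and Mup3, with 0.81 and 0.65. The share of genes at least 1.5-fold higher on both KO arrays varied with level. It was 1.77% for the 2373 genes with mean levels of 5 to 6, where Reg1 lies, and 1.09% for those of 6 to 7, which hold Akp3, Ada and Slc38a3. It was 0.557% for levels of 7 to 8, with Guca2b and Ly6f, and 0.332% for levels of 8 to 9, with Smim24.

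The WT-HF array was not used to choose the genes, and on it they parted. Relative to WT-LF, Ly6f was lower by a difference of −3.08, Guca2b by −1.42 and Reg1 by −0.81. Smim24, Akp3 and Ada lay within 1.5-fold, at −0.18, 0.04 and 0.27, and Slc38a3 was higher by 1.49. So 3 of 7 were at least 1.5-fold lower and 1 of 7 higher, against 3.82% and 7.72% of tested genes. The 7 had been chosen for a low WT-LF level, which enters this difference too, and with 1 array per diet it has no replicate check. Against WT-HF, 5 of 7 were at least 1.5-fold higher on both KO arrays, where 0.948% of tested genes were. At least 1.5-fold lower on both were 0 of 7, where 0.788% of tested genes were. Ada missed the limit with 0.53 and 0.57, and Slc38a3 was lower by −0.47 and −0.54. In 6 of the 7 both KO arrays lay above both wild type arrays, as in 3.41% of tested genes. These comparisons share the KO arrays or WT-LF with the one that chose the genes.

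Other genes of the gut brush border were set beside the 7, because they show whether gut transcripts as a class were higher on the KO arrays. Of the 27 measured, 18 were lowest on WT-HF. Of all tested genes 11.7% were, but only 14 of the 27 were tested. Sis, the sucrase-isomaltase of the brush border, was at 6.53 and 7.93 on KO1 and KO2, against 4.50 on WT-HF and 6.35 on WT-LF. Fabp2, the intestinal fatty acid binding protein, was at 6.84 and 7.46 on the KO arrays, against 4.89 and 6.78 on WT-HF and WT-LF. Both genes were highest on KO2 and lowest on WT-HF, and the same held for the sugar-digesting enzyme Mgam, the glucose transporter gene Slc5a1 and the structural protein gene Vil1. Lct, which encodes lactase, was at 5.80 and 6.68 on the KO arrays, against 4.88 and 5.95 on WT-HF and WT-LF.

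Of 14 tested brush border genes, 7 were at least 1.5-fold higher on both KO arrays than on WT-HF (0.948% of all tested), and 8 were lower by that much on WT-HF than on WT-LF (3.82% of all tested). Another 3, Anpep, Fabp1 and Apoa1, were higher by that much on WT-HF than on WT-LF (7.72% of all tested). Against WT-LF only 1 of the 14, Alpi, was at least 1.5-fold higher on both KO arrays (0.584% of all tested). Cdh17, the liver-intestine cadherin, was just under the filter and was higher as well, at 6.46 and 5.85 on the KO arrays, against 4.39 and 4.95 on WT-HF and WT-LF. Over the 27 measured brush border genes the median difference from WT-LF was 0.07 on KO1, 0.55 on KO2 and −0.41 on WT-HF, beside −0.07, −0.01 and 0.01 over all 18820 genes. By any amount, both KO arrays lay above both wild type arrays in 12 of these 27 (3.41% of all tested). Some of the 12 were below the filter, so the share over tested genes is no like background. Tm4sf20, for example, was at 3.74 and 3.74 on KO1 and KO2, against 3.42 and 3.53 on WT-HF and WT-LF. The same order held in 6 of the 7 genes, which were chosen for KO levels above WT-LF. WT-HF was the lowest of the 4 arrays in 4 of the 7 genes. Limma called 0 of the 14 in either comparison, with an adjusted p = 0.999 for each of them against WT-HF. The summed intensity of the 27 genes was 3922 and 6189 on the KO arrays, against 4775 and 3938 on WT-HF and WT-LF, and the aminopeptidase genes Anpep and Enpep, which are also made outside the gut, were among the brightest.

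**Figure D3:**
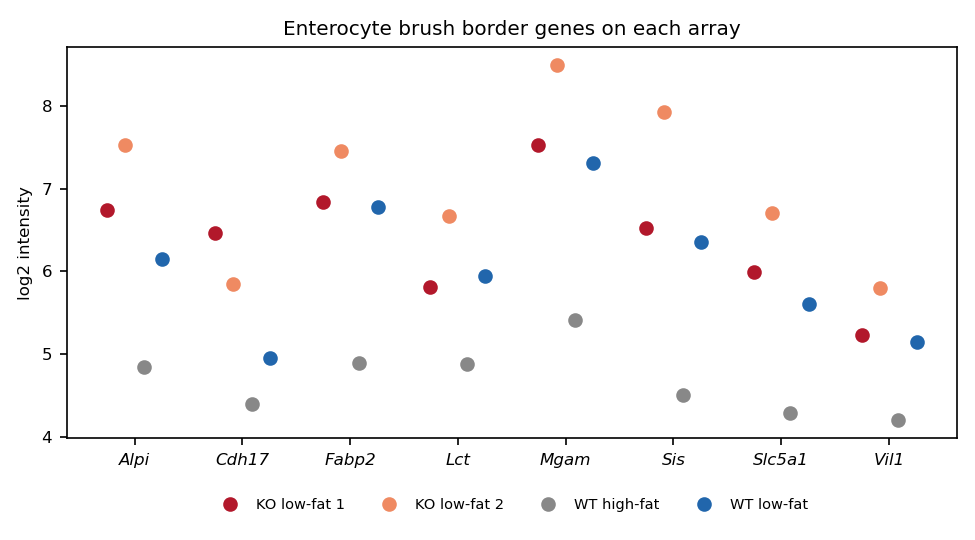
Log2 intensity of 8 brush border genes on the 4 arrays, 1 point per array, chosen as defining genes of the class with their values known. The WT-HF point is the lowest for all 8, and KO2 is the highest for all but Cdh17; of the 27 measured genes of the class only 18 were lowest on WT-HF, and Anpep was highest there.

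General epithelial genes followed another order on the KO arrays. Epcam, an adhesion molecule of epithelia, was at 6.88 and 6.02 on KO1 and KO2, against 4.57 and 5.98 on WT-HF and WT-LF. The keratin gene Krt8 was at 9.36 and 8.38 on the KO arrays, against 7.48 and 8.76. Over 15 such genes the median difference from WT-LF was 0.33 on KO1, −0.37 on KO2 and −0.84 on WT-HF, which was the lowest of the 4 for 13 of the 15. Of 12 tested, 0 were at least 1.5-fold higher on both KO arrays than on WT-LF (0.584% of all tested). Lower by that much was 1 (0.77% of all tested), the transcription factor gene Gata6, and limma called 0 of the 12. Of the 7 genes, Akp3, Reg1, Ly6f and Slc38a3 were likewise higher on KO1 than on KO2, with KO2 minus KO1 at −0.24 for Ly6f and −0.06 for Slc38a3, while Guca2b, Smim24 and Ada were not.

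Epididymal genes lay below WT-LF on KO1, KO2 and WT-HF, with median differences of −2.7, −1.4 and −5.1. Of 22 measured, 14 passed the filter, and some of them passed only through WT-LF. Spint4, for example, was at 3.25 and 4.43 on KO1 and KO2, against 3.19 on WT-HF and 11.35 on WT-LF. For such genes a lower level on the other arrays was fixed by the filter, so the counts are a description. Of the 14 tested, 13 were at least 1.5-fold lower on both KO arrays than on WT-LF (0.77% of all tested). On WT-HF 14 were lower by that much (3.82% of all tested). Ly6f and Guca2b shared with them a low level on WT-HF, and differed from them in being higher on the KO arrays than on WT-LF. Wfdc10, a gene of the epididymal list, was at 9.08 and 10.00 on the KO arrays, against 5.37 and 10.51 on WT-HF and WT-LF. The part of epididymal, gut or other epithelial RNA in the levels of the 7 genes was not tested, and in pooled tissue more cells of a type cannot be told apart from more RNA per cell.

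**Figure D4:**
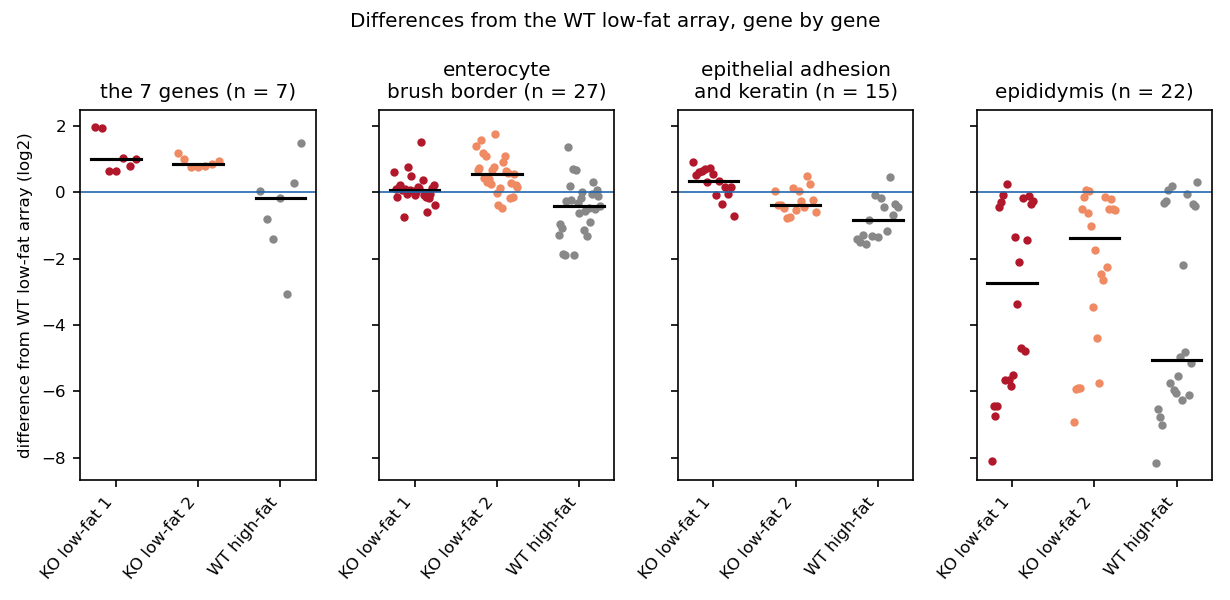
Log2 difference of each gene from WT-LF (blue line at 0) on KO1, KO2 and WT-HF, for the 7 genes and 3 lists; black bars are medians. The 7 genes lie above 0 on both KO arrays by choice and spread on WT-HF on either side of it, and the medians of brush border and epithelial genes on WT-HF and of epididymal genes on all 3 arrays are below 0.

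Markers of other cells were also read. Of 17 tested macrophage genes, 0 were at least 1.5-fold apart from WT-LF on both KO arrays (0.584% of all tested were higher and 0.77% lower), and 12 were higher by that much on WT-HF than on WT-LF (7.72% of all tested). The same count was 0 for enteroendocrine, B and plasma cell, T, NKT and NK cell, mesothelial and adipocyte genes. Summed macrophage intensity was 10902 and 24354 on KO1 and KO2, against 27762 and 13554 on WT-HF and WT-LF, and its part in the levels of the 7 genes was not tested.

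Among the relatives of Akp3, Alpi also had both KO arrays above both wild type arrays, while Alppl2 and Alpl did not. Alpi, the neighbouring intestinal alkaline phosphatase gene, was at 6.75 and 7.52 on KO1 and KO2, against 4.84 and 6.14 on WT-HF and WT-LF, so KO2 was its highest and KO1 that of Akp3. Alppl2, expressed in the early embryo, was at 5.28 and 4.93 on the KO arrays, against 4.67 and 5.28, and Alpl, the tissue-nonspecific form, was at 5.78 and 6.82 on the KO arrays, against 6.95 and 6.87. These genes are close in sequence, and how far their probes read each other was not tested. Of the 3 tested genes, Alpi, Alpl and the related phosphodiesterase gene Enpp3, only Alpi was at least 1.5-fold higher on both KO arrays than on WT-LF (0.584% of all tested), and limma called 0 of 3. Alppl2 was below the filter.

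Relatives of Reg1 were dim. The 6 other Reg genes were under the median of all probe sets on all 4 arrays and below the filter. Reg3b, an antibacterial lectin of the gut, was at 4.96 and 4.73 on the KO arrays, against 4.35 and 5.42 on WT-HF and WT-LF, and its close relative Reg3g had differences from WT-LF of −0.39 and −0.63. The other 4, Reg2, Reg3a, Reg3d and Reg4, were slightly above WT-LF on both KO arrays. Reg4 was higher by 0.46 and 0.30 and Reg3d by 0.24 and 0.31. In these 4 and Reg1, 5 of the 7 Reg genes, both KO arrays lay above both wild type arrays (3.41% of all tested). That share covers tested genes only, and these 4 were below the filter, so it is no like background for them. Reg1 was chosen for its KO levels. Digestive enzymes of the pancreas, the main site of Reg1, were low throughout. Of 18 acinar genes, 14 were under the array median on all 4 arrays. Of 3 tested, 0 were at least 1.5-fold apart from WT-LF on both KO arrays. The shares over all tested genes were 0.584% higher and 0.77% lower. Try5, a trypsinogen gene below the filter, was higher by 0.78 and 0.60. Among goblet and Paneth cell genes, 0 of 6 tested were at least 1.5-fold higher on both KO arrays (0.584% of all tested). Zg16, a secreted lectin of goblet cells, was at 7.98 and 7.37, against 5.21 and 6.95 on WT-HF and WT-LF.

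The related ligand and the receptor of uroguanylin were dim. Guca2a, which encodes the related peptide guanylin, was at 4.81 and 4.23 on KO1 and KO2, against 4.40 and 4.40 on WT-HF and WT-LF. Gucy2c, the guanylate cyclase that both peptides activate, was at 4.48 and 4.57, against 3.83 and 4.29, and Cftr, the chloride channel downstream, at 4.25 and 4.28, against 4.08 and 3.80. All 3 lay under the array medians on every array. Of 6 tested genes of cyclic GMP signalling besides Guca2b, 0 were at least 1.5-fold higher on both KO arrays than on WT-LF (0.584% of all tested) and 1 was lower (0.77% of all tested). It was Npr1, the receptor of atrial natriuretic peptide in fat, at 7.45 and 7.61 on the KO arrays, against 8.10 and 8.22 on WT-HF and WT-LF. Limma called 0 of the 6.

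Relatives of Ly6f ranged widely in level. Of 6 tested relatives, 0 were at least 1.5-fold apart from WT-LF on both KO arrays, and limma called 0. Of all tested genes 0.584% were higher and 0.77% lower by that much. Ly6e, a broadly expressed member, was at 11.48 and 11.67 on the KO arrays, against 11.60 and 11.38. Ly6i was at 4.68 and 4.43, against 4.66 and 4.38. Lypd8, a family member of colonic epithelium that guards against bacteria, shared the low WT-HF level, at 6.31 and 5.75 on the KO arrays, against 4.56 and 5.82. Ly6a, Ly6c1, Ly6c2 and Ly6g were not analysed here.

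For Ada, 14 tested genes of adenosine and purine turnover gave 0 that were at least 1.5-fold higher and 0 lower on both KO arrays. The shares over all tested genes were 0.584% and 0.77%, and limma called 0 of the 14. Adk, the kinase that competes for adenosine, was at 8.37 and 8.87 on KO1 and KO2, against 8.69 and 8.74 on WT-HF and WT-LF. Nt5e, the ectoenzyme that makes adenosine outside the cell, was at 6.65 and 7.19, against 6.45 and 7.16. Pnp, the next enzyme after adenosine deaminase, was at 9.36 and 9.32, against 9.04 and 9.28. Adenosine receptors were not analysed here.

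For Slc38a3, 0 of 15 tested genes of glutamine transport and metabolism were at least 1.5-fold apart from WT-LF on both KO arrays in either direction. Of all tested genes 0.584% were higher and 0.77% lower by that much, and limma called 0 of the 15. Slc38a5, the transporter most like it in function, was at 4.71 and 4.96 on the KO arrays, against 4.66 and 5.22, and Glul, which makes glutamine, at 12.37 and 12.59, against 12.51 and 12.37. Slc6a19, a neutral amino acid transporter of the gut and kidney brush border that was below the filter, was higher by 0.56 and 1.15. Some genes of liver plasma proteins had the order of Slc38a3. Fgb, a fibrinogen chain, was at 7.58 and 7.56 on KO1 and KO2, against 8.18 and 6.75 on WT-HF and WT-LF, and Alb, which encodes serum albumin, at 11.24 and 11.25, against 12.20 and 10.92. Of 8 tested liver and kidney genes, 2 were at least 1.5-fold higher on both KO arrays (Mup6 and Fgb, 0.584% of all tested) and 5 were higher by that much on WT-HF (7.72% of all tested), with 0 called by limma. Mup genes are many near-identical copies, so the signal of Mup6 cannot be assigned to 1 of them.

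The genes whose pattern was most like the middle of the 7 were mostly olfactory or vomeronasal receptors, as counted below. Likeness was the Euclidean distance, over the 3 differences from WT-LF on 4 arrays, from the medians of the 7. Olfactory and vomeronasal receptors, predicted genes (Gm and Rik symbols) and small RNAs were left out before genes were named. The 6 nearest of the rest began with Trav12-2, a T cell receptor alpha segment (distance 0.11), Pramel34 (0.22) and Fkbp5 (0.25). They ended with the oocyte homeobox gene Obox3 (0.27), Trav14d-3-dv8 (0.31) and Spopfm2 (0.32). Trav12-2 was at 7.07 and 6.80 on KO1 and KO2, against 5.93 and 6.05 on WT-HF and WT-LF. Within the distance of the sixth there were 31 genes, and 21 of them were olfactory or vomeronasal receptors, which were not named. Most receptor genes of this kind are silent in fat, and the 990 olfactory receptors had median differences from WT-LF of 0.35 on KO1, 0.21 on KO2 and −0.03 on WT-HF. The distances of the 7 themselves ran between 0.37 and 2.90, so none of the 7 was as close to the middle as these 6 genes.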

How the data were processed

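Expression was measured on 4 gene arrays of epididymal adipose tissue, each hybridized with labelled cDNA from 100 ng of total RNA. Intensity values, deposited by the authors for each probe set, are linear and come from RMA; R 2.15.0 is also named in the submitters' processing notes. No genome build is given in the sources used here. The log2 of these intensities was used without further scaling. Of 35556 probe sets, 21218 had 1 gene symbol, 1881 had several and 12457 had none; the brightest single-symbol probe set on average stood for its gene. The 11292 genes with a mean of at least the 40th percentile, 5.45, were tested with limma 3.58.1 in R 4.3.3: 3 group means, eBayes without trend, two-sided, Benjamini-Hochberg adjustment, threshold 0.05. Only the KO pair gave residual spread, 1 degree of freedom, which was taken to hold for the single wild type arrays too, and the number of arrays limits the precision. The fit was tested on simulated data. KO1 and KO2 are the CD1d-null arrays, WT-HF and WT-LF the wild type ones. Counts by size used 1.5-fold on both KO arrays.

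The 7 genes and the 18 lists (305 genes, 275 measured) were chosen with earlier results of these data known. Named genes were the 7, Cd1d1, up to 2 genes in each direction from a list by the smaller of their differences on the KO arrays, the 6 nearest patterns and defining markers of lists; others (Adk, Nt5e, Pnp, Lypd8, Krt8, Anpep, Enpep, Wfdc10, Alb, Guca2a, Ly6 genes) were chosen after their values were seen. Alternatives covered the filter, scaling, probe set rule, variance model, samples fitted, fold limit and each KO array left out. Figures used matplotlib 3.10.9.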

Additional observations from a re-analysis of the deposited data

How the results depend on the processing

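In the values without rescaling, 2 of the 7 genes were past 2-fold above WT-LF on both KO arrays. At 1.5-fold, all 7 stayed above WT-LF on both KO arrays after quantile normalization and after centring the arrays. The genes were chosen on this same difference, so the count is a description. The mean of probe sets could not change it, with 1 probe set per gene. Leaving out a KO array could not either, because every gene was past 1.5-fold on each KO array. The median difference of the 7, 0.91, ran between 0.85 and 1.02 with a KO array left out. It was 1.54 against WT-HF, where 5 genes were past 1.5-fold. Single differences between KO and WT-LF moved by more than the KO spread in 5 of 35 alternative values and reversed in 0. Those between the wild type arrays moved in 1 of 21. That of Akp3, near 0 at 0.04, changed sign to −0.0064 with the arrays centred. Every value that moved came from quantile normalization or centring. Values with a KO array left out lie within the KO spread by construction, and those with the mean of probe sets equal the main ones. Over all genes the count higher on both KO arrays, 66, was 160 without a filter, 22 with the filter at the 60th percentile and 14 at 2-fold. It was 218 without KO2 and 626 without KO1. The 5 limma calls for KO against WT-LF became 0 without a filter, 2 with the 60th percentile filter, 3 after quantile normalization, 3 with the mean of probe sets and 1 with both wild type arrays as 1 group. The single call against WT-HF became 0 without a filter and 4 with the 60th percentile filter. The cause was not tested. With 1 KO array left out no residual degree of freedom remained, so limma was not rerun there. No paired analysis was possible because only the KO arrays carry replicate numbers. Levels under the median of all probe sets make the folds of Akp3, Reg1, Slc38a3 and, on WT-HF, Ly6f approximate.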

Other observations

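Further genes known from epithelia, chosen after their values were seen, shared with Guca2b KO levels above WT-LF and a WT-HF level below it. Prap1, a secreted proline-rich protein of the gut lining, was at 6.47 and 6.44 on KO1 and KO2, against 4.62 on WT-HF and 5.69 on WT-LF. Cwh43, which remodels the lipid anchors of membrane proteins, was at 6.39 and 6.42 on the KO arrays, against 4.26 and 5.71 on WT-HF and WT-LF. Plet1, a surface protein of epithelial progenitors, was at 6.75 and 6.40, against 5.25 and 5.77. In these 3 genes both KO arrays lay above both wild type arrays, and WT-HF was the lowest. Of all tested genes, 3.41% had the first trait and 11.7% the second. Because the 3 genes were chosen with their values seen, these shares do not measure an excess. WT-HF minus WT-LF was smaller in size for Plet1, at −0.52, than for Guca2b, at −1.42.

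Other members of the gut and nucleoside lists differed widely between the KO arrays. Mmp7, a metalloprotease of Paneth cells, was at 4.28 and 7.25 on the KO arrays, against 5.16 and 5.06 on WT-HF and WT-LF. Cck, the gut hormone cholecystokinin, was at 4.14 and 6.98, against 6.10 and 4.31. The nucleoside transporter gene Slc28a3 went the other way, at 7.69 on KO1 and 3.79 on KO2, against 4.38 and 5.89.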
